A study of Mus musculus with 13 samples.

Results

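URR1 is a short repeat of rodent genomes that the element name assigns to the hAT superfamily of DNA transposons. Its coverage was followed with that of all other DNA transposon sequences in strand-specific RNA sequencing of mouse tumor cell lines. An entry was taken when its name began with URR1 or carried the terms hAT, Mariner-Tc1 or DNA transposon, and when it had any nonzero value on either strand in any library. The members were thus selected on their coverage being above 0, and how many had coverage is not a finding. Of 2035 listed repeat and piRNA locus sequences, 185 carried such a name and 7 of these had signal: URR1, URR1B, LTRIS, X11_DNA, TIGGER1, CHARLIE1A and Charlie13b. The study compared cells with and without Tdg, the gene of thymine DNA glycosylase, and with and without Trp53, the gene of p53. B16 melanoma cells were double knockout for Tdg and Trp53 (DKO), Tdg KO, Trp53 KO or wild type (WT), with 2 libraries each. KP lung adenocarcinoma cells were Tdg KO (3 libraries) or WT (2 libraries). No treatment is given, and all cells were grown in the same serum-containing medium. The labels do not say how many clones each genotype comprised or whether libraries came from separate cultures, so the p-values measure only the spread between these libraries, which may be technical.

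DNA transposons move as DNA, classically by a cut-and-paste reaction in which a transposase binds terminal inverted repeats, excises the element and inserts it elsewhere. hAT and Mariner-Tc1 are large superfamilies of this class, and Charlie and Tigger are their old mammalian representatives. In rodent genomes such elements are generally regarded as fossils that no longer move, unlike LINE-1 or the intracisternal A particles. Their RNA is usually part of a longer transcript, such as an intron or an untranslated region, rather than a product of a promoter of their own. Thymine DNA glycosylase removes thymine or uracil mispaired with guanine and also excises oxidized forms of methylcytosine, and p53 is a stress-activated transcription factor.

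The values are the authors' mean signal, read here as coverage per base of each element, and "coverage" below has that unit. Values of an element were whole multiples of 1 step in all libraries, which shows that they were not scaled to library size. The number of reads per library is unknown. Outside the 7SL sequence and the piRNA loci, coverage summed over repeats and both strands was 46967 and 29867 in DKO. The 6 remaining B16 libraries had 18137 to 27555. It was 10228 to 15375 in KP Tdg KO, against 5242 and 5569 in KP WT. Between 85.3% and 95.4% of the coverage in B16 libraries, and between 93.3% and 99.1% in KP libraries, fell on 7SL, with the highest shares in DKO library 1 and KP Tdg KO library 1. In bulk samples, a change in the share of cells with an RNA and a change in RNA per cell cannot be told apart.

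Most DNA transposon sequences had no coverage at this depth. Whether genomic copies that differ from a listed sequence would be counted for it was not tested. The 7 entries with signal were 3.78% of the 185 listed, while 38.7% of the 1384 other repeat consensus sequences had signal. By family, signal was seen in 3 of 87 hAT entries, 1 of 53 Mariner-Tc1 entries and 3 of 45 entries whose name gives no family. Of the 5 DNA transposon entries named for Rodentia or Muridae, URR1 was the one with signal. These shares follow from the rule that chose the entries and are given without a test.

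**Figure D1:**
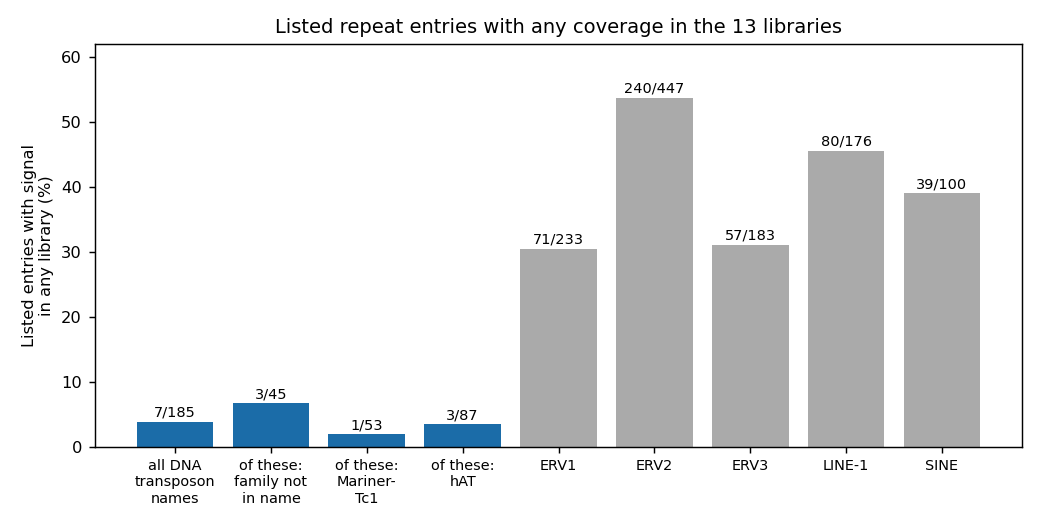
Share of listed repeat entries with any coverage in the 13 libraries (%), with the counts above the bars; blue, DNA transposon names, all and split by the family given in the name; grey, other repeat classes. The 7 of 185 DNA transposon entries with signal (3.78%) compare with 30.5% of ERV1, 53.7% of ERV2, 31.1% of ERV3, 45.5% of LINE-1 and 39.0% of SINE entries.

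Among the 7, only URR1, URR1B and LTRIS had more than a couple of nonzero values. X11_DNA had sense coverage of 0.688 in DKO library 1 and 0.697 in Tdg KO library 1 and was at 0 elsewhere. TIGGER1, a Tc1-related sequence named for Homo, had sense coverage of 0.0761 in KP Tdg KO library 1 and 0.122 in B16 Trp53 KO library 1. CHARLIE1A, an old hAT sequence, had 0.206 in sense in DKO library 1, and Charlie13b had 0.582 in antisense in B16 WT library 2. These are the lowest members above the limit of any nonzero value. All other DNA transposon names were at 0 in every column. Element strands with a mean coverage of at least 0.1 in a table entered the tests. In B16 these were both strands of URR1, URR1B and LTRIS and the sense strand of X11_DNA, 7 of the 14 strands of the 7 entries. In KP they were both strands of URR1, URR1B and LTRIS, 6 of the 14.

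URR1 was covered in all 4 B16 libraries without Tdg and was near or at 0 in Trp53 KO cells. URR1 sense coverage was 14.2 and 4.13 in DKO, 6.79 and 3.22 in Tdg KO, 0 and 0 in Trp53 KO, and 0.653 and 4.35 in WT. Its antisense coverage was 10.8 and 4.50 in DKO, 5.35 and 2.01 in Tdg KO, 0 and 1.27 in Trp53 KO, and 0 and 4.70 in WT. The order of the sense means was DKO (9.19 ± 7.16), Tdg KO (5.00 ± 2.52), WT (2.50 ± 2.61) and Trp53 KO (0; SD, n = 2 each). On both strands DKO overlapped Tdg KO and WT, and lay above Trp53 KO without overlap. The share of all features without overlap was not counted. Of all features, 90.3% had a log2 change above 0 in DKO against Trp53 KO. The step of the URR1 values corresponds to a length of 236 bases. With 298 covered bases, the most common lowest value over elements, taken as 1 fragment, the URR1 values stand for 0 to 11.3 fragments in sense and 0 to 8.5 in antisense.

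URR1B, a second entry of the URR1 type with a step of 225 bases, was covered in the same 4 libraries without Tdg. Its sense coverage was 2.24 and 5.24 in DKO, 3.12 and 2.58 in Tdg KO, 1.28 and 0 in Trp53 KO, and 0 and 0 in WT. Its antisense coverage was 2.16 and 6.05 in DKO, 6.89 and 1.31 in Tdg KO, 0 and 0 in Trp53 KO, and 3.82 and 0 in WT. URR1B thus had no sense coverage in WT, where URR1 had some, and URR1 had none in Trp53 KO library 1, where URR1B had some. The libraries also ranked differently, since DKO library 1 had the highest URR1 sense coverage and DKO library 2 the highest URR1B sense coverage. How the authors assigned fragments that match both entries is not given in the sources used here, and whether fragments were counted for both was not tested.

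**Figure D2:**
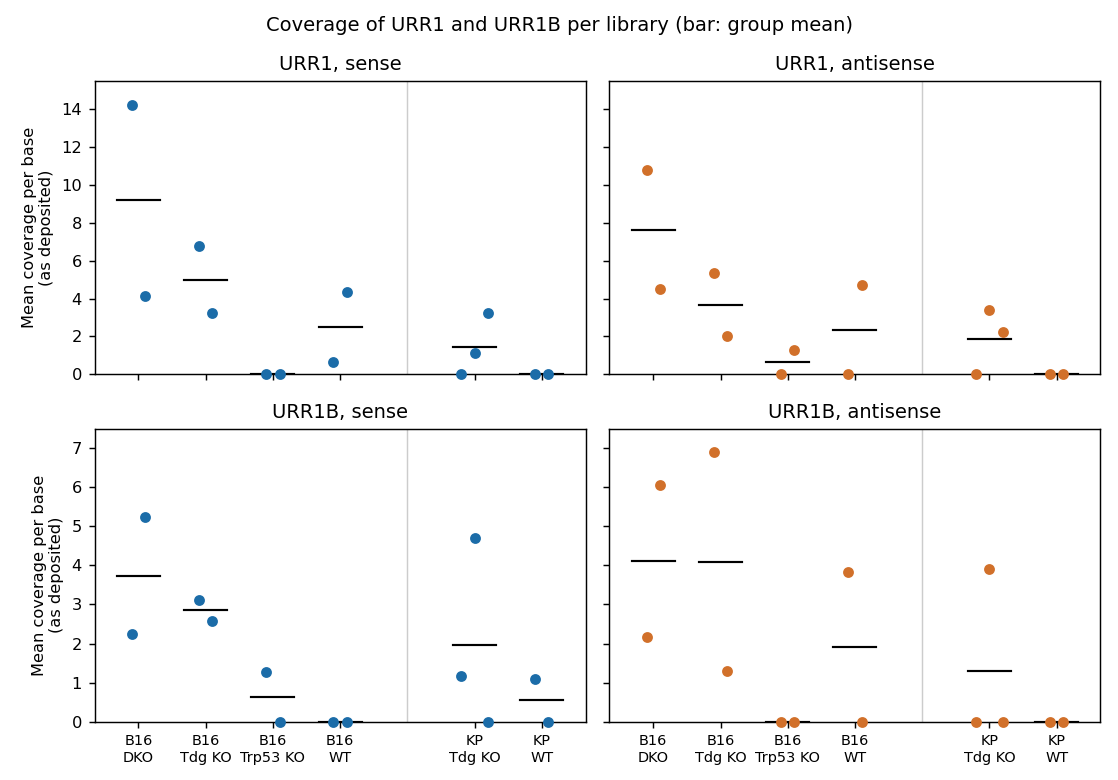
Coverage per base of URR1 (top) and URR1B (bottom) on the sense (left, blue) and antisense (right, orange) strand, 1 point per library and a bar at the group mean, on linear axes. URR1 sense coverage lies between 3.22 and 14.2 in the 4 B16 libraries without Tdg and at 0 in both Trp53 KO libraries.

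URR1 sense coverage rose in DKO relative to Trp53 KO, and was the only DNA transposon feature of 7 to pass the test in that comparison. Against a floor of 3 fragments per library (coverage 3.79), deposited URR1 sense coverage was at least 2.43-fold higher in DKO than in Trp53 KO. Both Trp53 KO libraries were at 0. The bound was 1.09-fold without DKO library 1 and 3.76-fold without DKO library 2. None of these bounds allows for library depth, so none is a minimum at equal depth. The factors of median-ratio scaling were 1.61 and 1.37 in DKO, and 0.673 and 0.601 in Trp53 KO. No bound was computed on scaled values. The fitted log2 change of coverage plus 0.1 was 6.28 ± 1.02 (SE; adjusted p = 0.0163 by limma over all 1246 features). This value depends on the added 0.1 and is no measure of the fold: it was 3.14 with 1 added and 9.59 with 0.01 added. That URR1 passed here was known when the entries were chosen, so the p-value describes it and is not independent support. The comparison called 31.1% of all features (29.5% higher and 1.52% lower), and 1 of the 7 DNA transposon features, a share not above that background. The split of all calls depends on the scaling: 368 higher and 19 lower as deposited, 26 and 110 after median centring, 38 and 52 after quantile normalization, and 89 and 46 after median-ratio scaling. Median-ratio scaling leaves the 0 values of Trp53 KO at 0, and in the main fit these equal values add no spread. Whether they follow from low depth was not tested by any scaling. The rise passed with each of the 3 scalings tried, with log2 changes of 4.23 (median centring), 4.79 (quantile normalization) and 5.72 (median-ratio scaling). It did not pass without DKO library 1 (5.40, adjusted p = 0.0659) or without Trp53 KO library 1 (adjusted p = 0.0716) or 2 (adjusted p = 0.066), nor with only these groups in the fit (adjusted p = 0.0601).

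The other DNA transposon features did not pass in DKO against Trp53 KO. URR1 antisense had a log2 change of 4.26 ± 2.01 (adjusted p = 0.132 by limma). URR1B antisense, at 0 in both Trp53 KO libraries, was at least 1.03-fold higher in DKO against its floor of 3.97, with an adjusted p of 0.061 by limma. That bound rests on DKO library 2, without which the remaining DKO value (2.16) is under the floor. Like that of URR1, it takes no account of library depth. URR1B sense had means under the floor in both groups (adjusted p = 0.0795) and X11_DNA sense too (adjusted p = 0.342). When URR1 and URR1B were added up per strand, a choice made after seeing the data, both the sense sum (5.08, adjusted p = 0.0357) and the antisense sum (4.99, adjusted p = 0.0284) passed. All 7 features had a change above 0, as did 90.3% of all features. The median log2 change was 3.25 over the 7, and 1.67 over all 1246. Of SINE B1 entries measured in sense, 8 of 9 rose (median 4.79), and of B2 entries 11 of 12 (median 3.96). Of intracisternal A particle entries 3 of 27 rose in sense (median 0.57), and of LINE-1 entries 4 of 51 (median 1.36). Among 243 piRNA loci in sense, 83 rose and 16 fell (median 1.16). Of all features in sense 26.2% rose, with a median of 1.61.

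Relative to the summed repeat coverage of its library, URR1 was as high in Tdg KO as in DKO. On both strands together it took 5.33 and 2.89 of every 10000 units of repeat coverage in DKO, 5.09 and 2.88 in Tdg KO, 0 and 0.620 in Trp53 KO, and 0.254 and 3.75 in WT. With URR1B added, the figures were 6.27 and 6.67 in DKO, 9.30 and 5.02 in Tdg KO, 0.465 and 0.620 in Trp53 KO, and 1.74 and 3.75 in WT. On this relative scale the 4 B16 libraries without Tdg lay above the 4 with Tdg for the sum of URR1 and URR1B. The sum was chosen after seeing the data, and URR1 alone did not separate them, with WT library 2 at 3.75. In KP the sum was 0.769, 12.8 and 4.62 in Tdg KO, against 2.09 and 0 in WT, with overlap. None of this was tested, and it rests on a few fragments per library. DKO and Tdg KO were not told apart by the fit either: the log2 change was 0.70 ± 1.02 for URR1 in sense (adjusted p = 0.641 by limma), 1.06 ± 2.01 in antisense (adjusted p = 0.719) and 0.25 ± 1.75 for URR1B in antisense (adjusted p = 0.941). The sign of all 3 turned after median centring and after quantile normalization. No DNA transposon feature of 7 passed in DKO against Tdg KO, where 3.13% of all features did (3.05% higher and 0.0803% lower). By limma none of the 7 was below an unadjusted p of 0.05, against 417 of all features, whose median log2 change was 1.14.

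Against WT, neither DKO nor the single knockouts changed a DNA transposon feature past the threshold. DKO against WT called 4.17% of features (4.09% higher and 0.0803% lower) and 0 of the 7, with URR1 at 2.09 ± 1.02 in sense (adjusted p = 0.224 by limma) and 3.35 ± 2.01 in antisense (adjusted p = 0.297). The antisense change was 0.56 without WT library 1 and 6.15 without WT library 2. URR1B antisense was at 2.57 ± 1.75 (adjusted p = 0.333), and URR1B sense, which was under the floor in both groups, had the smallest p of the 7 (unadjusted p = 0.00515, adjusted p = 0.0608 by limma). It was the 1 feature of the 7 below an unadjusted 0.05 by limma, against 371 of all features. Its groups did not overlap, and the share of all features without overlap was not counted. Tdg KO against WT called 0.0% of features. URR1 sense was at 1.39 ± 1.02 and URR1B antisense at 2.32 ± 1.75 (adjusted p = 1.00 for both by limma). Below an unadjusted p of 0.05 were 42 features, among them 1 of the 7, again URR1B sense (unadjusted p = 0.00665, adjusted p = 0.723 by limma). The 2 WT libraries differed widely: without WT library 1 the URR1 sense change was 0.10, and without WT library 2 it was 2.67.

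Trp53 KO against WT also called 0.0% of features. Here URR1 sense was at 0 in both Trp53 KO libraries and at 0.653 and 4.35 in WT, both groups under the floor on average, so no fold is given (adjusted p = 0.377 by limma). Below an unadjusted p of 0.05 were 81 features by limma, of which 2 were among the 7: URR1 sense (unadjusted p = 0.00565) and LTRIS antisense (unadjusted p = 0.0333). This comparison and that of DKO with Trp53 KO share the Trp53 KO libraries, so the 0 values of URR1 there enter both. The Tdg by Trp53 interaction, which asks whether Tdg loss acted differently with and without Trp53, called 0.0% of features, with 437 below an unadjusted 0.05 by limma. For URR1 in sense it was 4.90 ± 1.45 (adjusted p = 0.0796 by limma), and in antisense 1.97 ± 2.85 (adjusted p = 0.613).

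**Figure D3:**
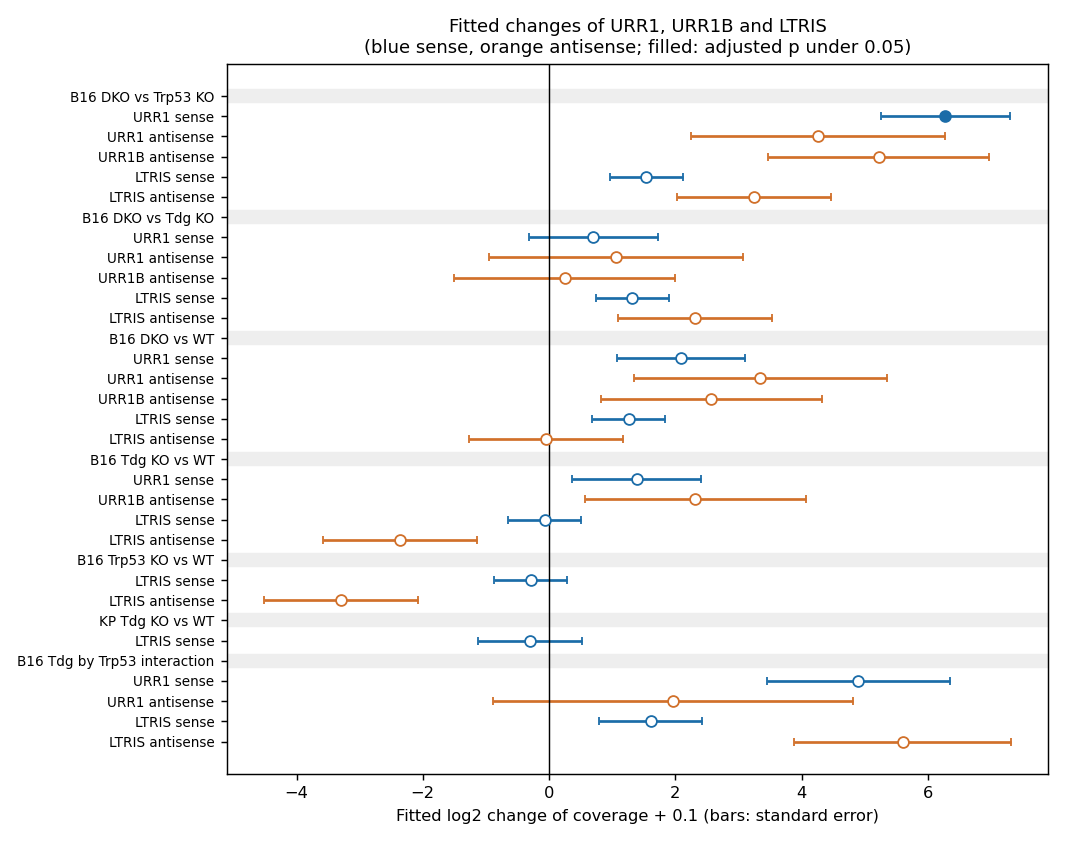
Fitted log2 change of coverage + 0.1 (x axis; bars, standard error) for URR1, URR1B and LTRIS in each comparison where a group mean exceeded 3 fragments, with the interaction below; blue, sense; orange, antisense; filled points, adjusted p under 0.05 by limma. The filled point is URR1 sense in DKO against Trp53 KO (6.28), and all others are open.

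In KP cells, URR1 was seen in Tdg KO libraries and in neither WT library, but not in all Tdg KO libraries. Its sense coverage was 0, 1.13 and 3.25 in Tdg KO, against 0 and 0 in WT. Its antisense coverage was 0, 3.39 and 2.25 in Tdg KO, against 0 and 0 in WT. Tdg KO library 1, where URR1 was at 0 on both strands, had the highest 7SL share (99.1%) and also the highest repeat coverage outside 7SL of the KP libraries (15375). URR1B sense coverage was 1.18, 4.69 and 0 in Tdg KO, against 1.09 and 0 in WT, and its antisense coverage of 3.91 was confined to Tdg KO library 2. Repeat coverage outside 7SL was 5242 and 5569 in WT, against 10228 to 15375 in Tdg KO. Whether the 0 values of URR1 in WT follow from lower depth was not tested. All group means of URR1 and URR1B in KP were under the floor, the groups overlapped, and no fold is given. KP Tdg KO against WT called 0.0% of 984 features and 0 of 6 DNA transposon features, with 48 features and none of the 6 below an unadjusted 0.05 by limma. The adjusted p was 0.777 for URR1 on both strands, 0.783 for URR1B sense and 0.778 for URR1B antisense (limma). The tables of B16 and KP cells were fitted apart, and no level was tested across them.

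URR1 had signal in 9 of 13 libraries and on both strands in 7 of them. WT library 1 of B16 had it in sense and Trp53 KO library 2 in antisense, at about 1 fragment or less each. Its sense share of coverage was 56.9% and 47.8% in DKO, 55.9% and 61.6% in Tdg KO and 48.0% in WT library 2, and in KP Tdg KO libraries 2 and 3 it was 25.0% and 59.0%. Over all libraries URR1 was 52.4% sense and URR1B 47.0%, while LTRIS was 87.9% sense. URR1B was covered on both strands in 5 of the 9 libraries where it had signal. The ratio of sense to antisense coverage was fitted over 737 elements in B16 and 588 in KP. DKO against Trp53 KO called 1.76% of elements (0.136% higher and 1.63% lower) and none of the 4 DNA transposons fitted. The smallest adjusted p of these was 0.448 by limma, for LTRIS, and none was below an unadjusted 0.05. In each other comparison 0.0% of elements passed by limma, with 25 to 96 below an unadjusted 0.05. Among these was LTRIS in Tdg KO against WT, in Trp53 KO against WT and in the interaction (adjusted p = 0.859, 0.470 and 0.399).

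LTRIS is called a DNA transposon in the element name, but its prefix denotes a long terminal repeat, a retroviral feature. There are 9 further entries with that prefix and with signal, and all 9 are named as ERV1, a class of endogenous retroviruses. Its sense coverage was close to that of LTRIS_Mm, 1 of these. LTRIS was at 24.5 and 12.5 in DKO, 8.47 and 5.68 in Tdg KO, 7.97 and 4.42 in Trp53 KO, and 4.79 and 11.0 in WT. LTRIS_Mm was at 20.0 and 9.75 in DKO, 9.56 and 6.60 in Tdg KO, 7.82 and 1.87 in Trp53 KO, and 3.87 and 9.23 in WT. Across the 13 libraries the sense ratio of LTRIS_Mm to LTRIS had a median of 0.981 and ran between 0.423 (Trp53 KO library 2) and 1.16. In KP, LTRIS sense coverage was 5.44, 6.89 and 23.9 in Tdg KO, against 16.7 and 8.54 in WT. LTRIS was the one DNA transposon entry with signal in all 13 libraries. Whether the same fragments fed both entries was not tested. LTRIS is kept here under its deposited name, and leaving it out changes no count of DNA transposon features that passed.

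**Figure D4:**
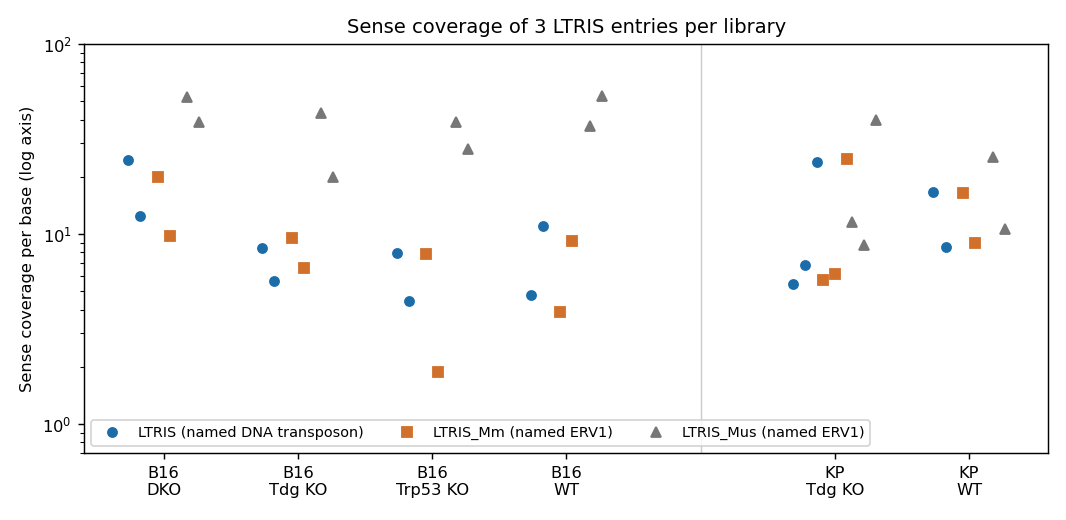
Sense coverage per base (log axis) of LTRIS, which is named a DNA transposon, and of LTRIS_Mm and LTRIS_Mus, which are named ERV1, 1 point per library. LTRIS and LTRIS_Mm lie close together (median ratio 0.981 of LTRIS_Mm to LTRIS), least so in Trp53 KO library 2, and both lie below LTRIS_Mus in all 13 libraries.

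LTRIS sense coverage was higher in DKO than in every other B16 library, but not past the threshold. The log2 change was 1.54 ± 0.58 against Trp53 KO (adjusted p = 0.0787 by limma), 1.32 ± 0.58 against Tdg KO (adjusted p = 0.17) and 1.26 ± 0.58 against WT (adjusted p = 0.203). After median centring these were -0.51, -0.18 and -0.12, so the direction depends on the scaling. As deposited, 90.3%, 88.7% and 86.0% of all features had a log2 change above 0 in the same comparisons. Per 10000 units of repeat coverage, LTRIS took 6.30 and 4.89 in DKO, 3.80 and 3.45 in Tdg KO, 3.32 and 2.15 in Trp53 KO, and 2.81 and 6.52 in WT. It took 4.56, 6.74 and 21.1 in KP Tdg KO, against 31.9 and 15.3 in KP WT. Its sense log2 change was -0.07 ± 0.58 in Tdg KO against WT (adjusted p = 1.00 by limma), -0.29 ± 0.58 in Trp53 KO against WT (adjusted p = 0.925) and -0.30 ± 0.82 in KP Tdg KO against WT (adjusted p = 0.903). Of the entries named ERV1 with the same prefix, 2 of 8 rose in sense and 3 of 9 in antisense in DKO against Trp53 KO by limma. These shares are close to those of all features, of which 26.2% rose in sense and 33.2% in antisense. LTRIS_Mm rose in antisense (2.31 ± 0.59, adjusted p = 0.0313 by limma).

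LTRIS antisense coverage was low in both single knockouts. It was 5.11 and 2.09 in DKO, 0.582 and 0.583 in Tdg KO, 1.18 and 0 in Trp53 KO, and 2.43 and 4.74 in WT. DKO and WT overlapped, and both lay above Tdg KO and Trp53 KO without overlap. The share of all features without overlap was not counted. LTRIS_Mm antisense overlapped between Tdg KO (1.84 and 3.03) and WT (2.57 and 4.18). The LTRIS antisense means of Tdg KO (0.583) and Trp53 KO (0.589) were under its floor of 1.76. The log2 change was 3.24 ± 1.22 in DKO against Trp53 KO (adjusted p = 0.0785 by limma) and 2.31 ± 1.22 in DKO against Tdg KO (adjusted p = 0.233). Against Trp53 KO it was 5.08 without Trp53 KO library 1 and 1.40 without Trp53 KO library 2. It was -2.36 ± 1.22 in Tdg KO against WT (adjusted p = 1.00) and -3.29 ± 1.22 in Trp53 KO against WT (adjusted p = 0.657), and -0.05 ± 1.22 in DKO against WT (adjusted p = 0.984). The interaction was 5.60 ± 1.72 (adjusted p = 0.0836 by limma), and in sense 1.61 ± 0.82 (adjusted p = 0.21). None of these passed. In sense share, LTRIS was at 82.7% and 85.7% in DKO, 93.6% and 90.7% in Tdg KO, 87.1% and 100% in Trp53 KO, and 66.3% and 69.9% in WT.

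The repeat entries whose sense profile over the 13 libraries was most like that of URR1 were LTR sequences, a common kind in these data. Of 535 repeat entries with signal outside the DNA transposons, 71 were ERV1, 240 ERV2 and 57 ERV3. The LTR share of the entries compared was not counted. Likeness was the root mean square difference of log2 coverage plus 0.1, each entry centred within each cell line, over 303 repeat entries other than DNA transposons. The closest were ORR1B (1.02), MLTR31A_MM (1.10), RLTR10B (1.26), RLTRETN_MM (1.33) and RMER2B_Rn (1.42), against a median of 2.21 over all 303. URR1B was farther from URR1 (2.84) than the median entry was, and LTRIS was at 2.07. RLTRETN_MM, an LTR of early transposons, had sense coverage of 8.31 and 3.20 in DKO, 6.05 and 1.86 in Tdg KO, 0 and 0 in Trp53 KO, and 1.86 and 2.33 in WT. MLTR31A_MM had 3.18 and 2.13 in DKO, 2.32 and 3.07 in Tdg KO, 0.36 and 0 in Trp53 KO, and 2.10 and 2.43 in WT. All 5 were low or at 0 in Trp53 KO, which follows from their choice by likeness to URR1, itself at 0 there. ORR1B was under 1.60 in every library but DKO library 1 (9.59), and RLTR10B and RMER2B_Rn reached 4.62 and 2.65. After median-ratio scaling 4 of these 5 were again among the 5 closest. All entries share the libraries and their unscaled depth, and many of the values compared are 0.

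**Figure D5:**
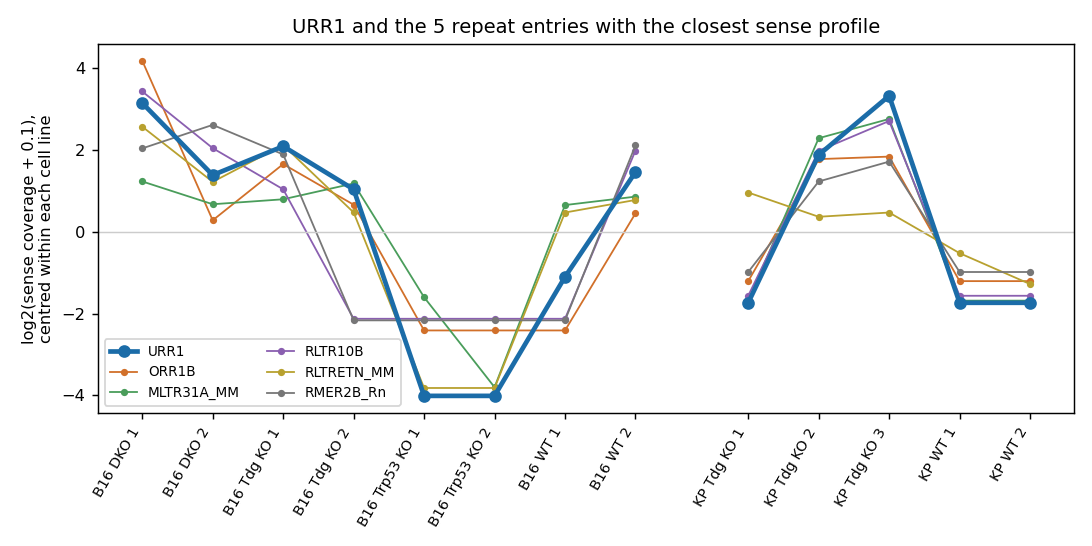
Sense profile of URR1 (thick blue) and of the 5 closest repeat entries, as log2(coverage + 0.1) centred within each cell line (y axis), for each library (x axis). URR1, ORR1B, RLTR10B, RLTRETN_MM and RMER2B_Rn are at 0 in both Trp53 KO libraries. ORR1B, RLTR10B and RMER2B_Rn are also at 0 in B16 WT library 1, and RLTR10B and RMER2B_Rn in B16 Tdg KO library 2. The 5 entries were chosen by likeness to URR1.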

How the data were processed

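Per the labels' protocols, libraries keep the strand and were built from TRIzol-extracted RNA after rRNA depletion. The authors deposited 2 tables of piPipes mean signal, a coverage signal with a sense and an antisense column for each of 13 libraries; no column was left out. The minus sign of antisense values was dropped. HISAT2, DESeq2 and the mm10 build are named, without roles or versions, in the submitters' processing notes. The handling of fragments that match several elements is not given in the sources used here. Of 2035 elements 895 had signal, and 889 were analysed after 6 exact duplicates were removed (536 repeat consensus sequences, 353 piRNA loci). For 661 of 661 elements with at least 6 nonzero values, the values were whole multiples of 1 step within a relative tolerance of 1e-09.

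Each strand was 1 feature. Features with mean coverage of at least 0.1 entered limma 3.58.1 (lmFit, eBayes with trend; R 4.3.3) as log2 of coverage plus 0.1, unscaled because depth is unknown, with all groups of a table in the fit, two-sided contrasts and Benjamini-Hochberg adjustment at 0.05 over 1246 (B16) or 984 (KP) features. Residual degrees of freedom were 4 and 3. The fit was tested on simulated data. Alternatives were 3 scalings, 2 pseudocounts, 2 filters, only the groups compared, a replicate block, each library left out, and no piRNA loci; summing URR1 with URR1B and not counting LTRIS were added after seeing the data. A floor of 3 fragments covers counting error only. Named were the URR1 entries, members that passed, the best-covered member of each family, and the 5 entries closest to URR1 in sense; the other members with signal, LTRIS_Mm and LTRIS_Mus were named after their values were seen. Members and lists were chosen with earlier results of these data known. No consensus sequence was at hand, so none is shown.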

Additional observations from a re-analysis of the deposited data

Results flagged for a closer look

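LTRIS antisense coverage differed in opposite directions between libraries with and without Tdg, depending on Trp53, though neither difference passed the test (adjusted p = 0.0785 for DKO against Trp53 KO and 1.00 for Tdg KO against WT by limma). With Trp53 lost, both DKO libraries (5.11 and 2.09) lay above both Trp53 KO libraries (1.18 and 0). With Trp53 present, both Tdg KO libraries (0.582 and 0.583) lay below both WT libraries (2.43 and 4.74). The test of this difference, the Tdg by Trp53 interaction, gave a log2 value of 5.60 ± 1.72 that did not pass (adjusted p = 0.0836 by limma, and 0.0749 to 0.434 over the alternatives). Of all 1246 features, 90.3% had an interaction above 0, with a median of 1.66. The interaction of LTRIS_Mm antisense was 2.77 ± 0.84 (adjusted p = 0.0836) and that of LTRIS2 antisense 2.05 ± 0.66 (adjusted p = 0.0873). The 0.582 and 0.583 of Tdg KO are 1 fragment each. LTRIS_Mm antisense, the entry closest to LTRIS in sense, was at 6.02 and 3.51 in DKO, 1.84 and 3.03 in Tdg KO, 1.23 and 0.575 in Trp53 KO, and 2.57 and 4.18 in WT, where Tdg KO and WT overlap.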

How the results depend on the processing

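The count of DNA transposon features that passed in DKO against Trp53 KO, 1 of 7, became 2 with a filter at mean coverage of 1, 2 with URR1 and URR1B summed and 0 with only the groups compared, and ran between 0 and 2 with a library left out; the second feature was URR1B antisense, or the antisense sum. It was 0 in the other 6 comparisons, and for the strand ratio in all 7, under every alternative run. Over all features, DKO against Trp53 KO called 387, but 136 after median centring, 90 after quantile normalization, 135 after median-ratio scaling, 135 without piRNA loci, 0 with only the groups compared, 2 and 15 without Trp53 KO library 1 and 2, and 140 without DKO library 1. DKO against Tdg KO called 39 (0 to 300 with a library left out, 0 to 157 otherwise) and DKO against WT 52 (0 to 268 and 0 to 78). Of 26 log2 changes under 469 alternatives, 33 turned sign, each without passing. With median centring, quantile normalization and median-ratio scaling, DKO against Tdg KO was -0.80, -0.51 and -0.23 for URR1 sense and -1.25, -1.41 and -0.66 for URR1B antisense, with -0.44 and -0.25 for URR1 antisense under the first 2. LTRIS sense under the same 3 was 0.06, 0.08 and 0.08 in Tdg KO against WT and 0.39, 0.22 and 0.12 in Trp53 KO against WT. Median centring gave -0.21 for the URR1 antisense and -0.57 for the LTRIS sense interaction, and for LTRIS sense in DKO -0.51 against Trp53 KO, -0.18 against Tdg KO and -0.12 against WT. With 1 library left out, ranges that crossed 0 were -0.18 to 1.59 (URR1 sense) and -0.91 to 1.41 (URR1B antisense) in DKO against Tdg KO, -0.07 to 5.22 (URR1B antisense) and -0.68 to 0.58 (LTRIS antisense) in DKO against WT, -0.32 to 4.97 (URR1B antisense) and -0.66 to 0.52 (LTRIS sense) in Tdg KO against WT, -0.88 to 0.30 (LTRIS sense, Trp53 KO against WT), -0.95 to 0.18 (LTRIS sense, KP) and -0.83 to 4.76 (URR1 antisense interaction). Wide ranges that kept their sign were 2.37 to 6.15 (URR1 antisense) and 1.40 to 5.08 (LTRIS antisense) in DKO against Trp53 KO, 0.81 to 3.37 (URR1 sense) and 0.56 to 6.15 (URR1 antisense) in DKO against WT, and -5.13 to -1.45 (LTRIS antisense, Trp53 KO against WT). For all of these the cause was not tested. Replicate numbers did not pair the libraries (correlation of same-numbered deviations -0.0132 to 0.177 in B16, -0.0205 and 0.0925 in KP). With the replicate block 322, 0 and 0 features were called in the 3 DKO comparisons, and 1, 0 and 0 DNA transposon features. Values of a few fragments limit every statement on URR1 and URR1B.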
